A study of Mus musculus with 5 samples.

Results

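Kainate receptors and delta receptors are branches of the ionotropic glutamate receptor family. The 6 genes described here encode the 5 kainate receptor subunits, Grik1, Grik2, Grik3, Grik4 and Grik5, and the delta subunit Grid1. They were chosen by symbol, as 6 of the 31054 features counted in 5 single-nucleus RNA libraries of the mouse paraventricular hypothalamus, the nucleus that holds the oxytocin (OT) and vasopressin (AVP) neurons projecting to the pituitary. All mice were male and on a C57BL6 background, and all carried OT-Cre, which recombines in oxytocin cells. The saline and VPA libraries came from mice that also carried the tdTomato reporter Rosa26tm9(CAG-tdTomato)Hze (Ai9). Their dams had been injected on gestation day 12.5 with saline (10 mL/kg) or with sodium valproate (VPA, 500 mg/kg), and nuclei were taken at 5 weeks of age. The hM3 control library and the CNO libraries, replicates 1 and 2, came from mice carrying Rosa26dreaddm3 (stop-hM3), a Cre-dependent receptor that clozapine N-oxide (CNO) activates. All of these had VPA exposure at the same prenatal dose and day. They received saline (hM3 control) or CNO on postnatal day 2, had an AAV injected in the paraventricular and supraoptic regions, and were sampled at 5 to 7 weeks. What the AAV carried is not given in the sources used here. Each library pooled nuclei of 2 to 4 mice, and the sorting gate favoured larger nuclei.

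Kainate receptors are tetramers. GluK1, GluK2 and GluK3 (from Grik1, Grik2 and Grik3) can each form a channel alone, whereas GluK4 and GluK5 (from Grik4 and Grik5) bind glutamate with high affinity but need a partner from the first group. Neto1 and Neto2 are auxiliary subunits that slow the channel's closing. Kainate receptors act on both sides of the synapse, and before it they tune the release of GABA and glutamate. GluD1, the product of Grid1, does not open to glutamate. It binds cerebellins and, through them, presynaptic neurexins, and so takes part in forming and keeping synapses.

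The 6 genes lie on 6 chromosomes. In the GENCODE vM21 annotation (GRCm38, the assembly also called mm10) Grik3 (ENSMUSG00000001985) spans chr4:125490700-125714173 on the plus strand, Grik4 (ENSMUSG00000032017) chr9:42518135-42944493 on the minus strand and Grik5 (ENSMUSG00000003378) chr7:25009849-25072346 on the minus strand. Grik1 (ENSMUSG00000022935) spans chr16:87895900-88290265 and Grik2 (ENSMUSG00000056073) chr10:49094833-49788766, both on the minus strand, and Grid1 (ENSMUSG00000041078) spans chr14:34820108-35583379 on the plus strand. Grik5 was the shortest gene at 62.5 kb and Grid1 the longest at 763 kb. Grik2, Grik3, Grik4 and Grid1 overlap 6, 2, 2 and 4 other annotated genes, and 0 of these had a feature of their own in the count tables. Whether reads in introns were counted is not given in the sources used here. Levels were therefore compared between classes and libraries for the same gene, never between genes.

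RefSeq promoter windows (GRCm38.p6, 250 bases before to 50 after the start) were at hand for 4 of the 6 genes. The windows of Grik3, the gene whose level was most uneven across neurons, Grik4, the gene that differed most between the VPA and saline libraries, and Grik5, the gene with the flattest profile, are shown 5′ to 3′ on the strand of the gene. Capitals mark GGGCGG or its reverse complement CCGCCC, the core of the GC box.
Grik3: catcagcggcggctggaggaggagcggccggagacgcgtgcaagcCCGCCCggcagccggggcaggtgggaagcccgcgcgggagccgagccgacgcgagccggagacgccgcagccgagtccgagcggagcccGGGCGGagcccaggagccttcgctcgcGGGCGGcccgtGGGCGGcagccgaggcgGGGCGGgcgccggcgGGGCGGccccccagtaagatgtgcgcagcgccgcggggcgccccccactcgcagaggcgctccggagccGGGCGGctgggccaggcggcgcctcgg
Grik4: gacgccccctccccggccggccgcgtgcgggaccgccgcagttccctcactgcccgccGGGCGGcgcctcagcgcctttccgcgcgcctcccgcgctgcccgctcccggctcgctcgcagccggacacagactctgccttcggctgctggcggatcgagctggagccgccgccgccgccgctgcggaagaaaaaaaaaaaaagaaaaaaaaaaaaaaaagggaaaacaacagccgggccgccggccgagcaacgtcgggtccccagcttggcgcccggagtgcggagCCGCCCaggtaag
Grik5: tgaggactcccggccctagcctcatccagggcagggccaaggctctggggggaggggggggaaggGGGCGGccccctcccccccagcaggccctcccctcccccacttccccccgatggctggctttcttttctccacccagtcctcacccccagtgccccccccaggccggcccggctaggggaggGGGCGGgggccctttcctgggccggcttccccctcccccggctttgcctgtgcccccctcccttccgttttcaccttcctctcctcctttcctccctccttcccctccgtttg
The Grik3 window, at chr4:125490446-125490745, held 50 CG pairs and 7 matches to the GC box core. The Grik4 window, at chr9:42944322-42944621, held 42 CG pairs and 2 matches, and the Grik5 window, at chr7:25072320-25072619, held 10 CG pairs and 2 matches. The Grik2 window, at chr10:49788705-49789004, held 26 CG pairs and 0 matches. Over all 32851 windows the median was 7 CG pairs, and 35.7% held at least 1 match on either strand. Grik3 and Grik4 had more CG pairs than 99.1% and 97.0% of the windows, and Grik5 more than 56.5%. These counts describe the sequence and were not compared with any readout.

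The libraries held 4440 to 10904 nuclei with a median of 3722.5 to 11913 UMIs (counted molecules) each, and 52506958 to 76243280 UMIs in all. After removal of shallow nuclei and doublets 29484 nuclei remained. Clusters were named from marker genes, and the 6 receptor genes were left out of the genes used for clustering. Of 18913 neuron-like nuclei 9748 lay in Gad-rich (GABAergic) clusters and 7951 in Slc17a6-rich (glutamatergic) clusters. The latter included 550 OT-like, 261 AVP-like and 3902 other Sim1-rich nuclei, Sim1 being a transcription factor of the paraventricular lineage, and 1907 thalamus-type nuclei, which come from tissue outside the nucleus. Neuron clusters with the markers of several classes, 1129 nuclei (12 to 654 per library, most in CNO replicate 2), were set aside. Pairs of libraries shared 4 to 23 cell barcodes. CNO replicate 2 stood apart by its depth and by a smaller share of neurons (41.0% of its nuclei, against 59.8% to 75.7% in the others), so values are given library by library.

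Levels are in CPM, the UMIs of a gene summed over a class within a library and scaled to a common total, and lists of 5 values follow the order saline, VPA, hM3 control, CNO replicate 1, CNO replicate 2. Differences are in log2(CPM + 10). Differences between classes were taken within each library and tested with an exact two-sided sign-flip permutation test over libraries. With 5 libraries there are 32 sign assignments, and a difference with the same sign in all 5 has an exact p of 2 in 32, the smallest possible, which does not pass 0.05. The share of all genes with such a difference is therefore given beside each count.

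Grik1, Grik2 and Grik3, the subunits that form channels alone, were all higher in Gad-rich than in Slc17a6-rich neurons of every library. Grik4 was as well, by a small margin. In all, 4 of the 6 genes had this direction, where 23.8% of all genes did. In the reverse direction it was 0 of 6, where 11.6% of all genes did.

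Grik3 separated these neurons most. Its level in Gad-rich neurons was 226, 207, 223, 238 and 166 CPM, and in Slc17a6-rich neurons 31.7, 26.0, 50.7, 64.8 and 39.8 CPM. The lowest Gad-rich value lay above the highest Slc17a6-rich value, and the difference averaged 2.12 ± 0.40 (SD, n = 5 libraries), with a range of 1.73 to 2.59. A difference of at least 0.5 in every library, which Grik3 and none of the other 5 receptor genes had, was found for 0.396% of all genes. When each nucleus was thinned to 2000 UMIs, 33.8%, 31.6%, 33.4%, 33.3% and 28.0% of Gad-rich nuclei had a Grik3 UMI, against 4.93%, 3.71%, 6.38%, 9.98% and 6.17% of Slc17a6-rich nuclei. In oligodendrocyte-like nuclei, where free RNA is a possible source, the thinned share was 0.213%, 1.18%, 1.53%, 1.78% and 2.34%. Without thinning the Grik3 shares ranged from 60.8% to 79.0% in Gad-rich, 11.2% to 37.2% in Slc17a6-rich and 0.660% to 2.86% in oligodendrocyte-like nuclei. Median depths were 5766 to 15772 UMIs in Gad-rich, 6884 to 18695 in Slc17a6-rich and 1719 to 3734 in oligodendrocyte-like nuclei. Between 1 and 17 Gad-rich, 1 and 4 Slc17a6-rich and 12 and 361 oligodendrocyte-like nuclei per library were too shallow to thin.

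Grik1 stood at 799, 808, 938, 772 and 610.0 CPM in Gad-rich and at 596, 580.5, 522, 443 and 461 CPM in Slc17a6-rich neurons. These ranges did not overlap, though the gap between the lowest and highest was narrow, and the difference was 0.58 ± 0.21 (SD, n = 5). Grik2 stood at 2363, 2245, 2282, 2053 and 2230.4 CPM in Gad-rich and at 1589.9, 1717, 1614, 1469 and 1470.0 CPM in Slc17a6-rich neurons, also without overlap, with a difference of 0.51 ± 0.08 (SD, n = 5). Neto1 and Neto2 followed the same direction, with differences of 0.57 ± 0.12 and 0.62 ± 0.24 (SD, n = 5) and the higher value on the Gad-rich side in 5 of 5 libraries.

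The high-affinity subunits and the delta subunit hardly separated Gad-rich from Slc17a6-rich neurons. Grik4 differed by 0.13 ± 0.10 (SD, n = 5), with overlapping ranges of levels. Grik5 differed by 0.00 ± 0.08 and was higher on the Gad-rich side in 1 of 5 libraries (exact sign-flip permutation p = 1). Grid1 differed by -0.01 ± 0.08 and was higher there in 3 of 5 libraries (exact sign-flip permutation p = 0.75). These tests do not show that the levels were equal: Grid1 ranged from -0.13 to 0.09 over the libraries.

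**Figure D1:**
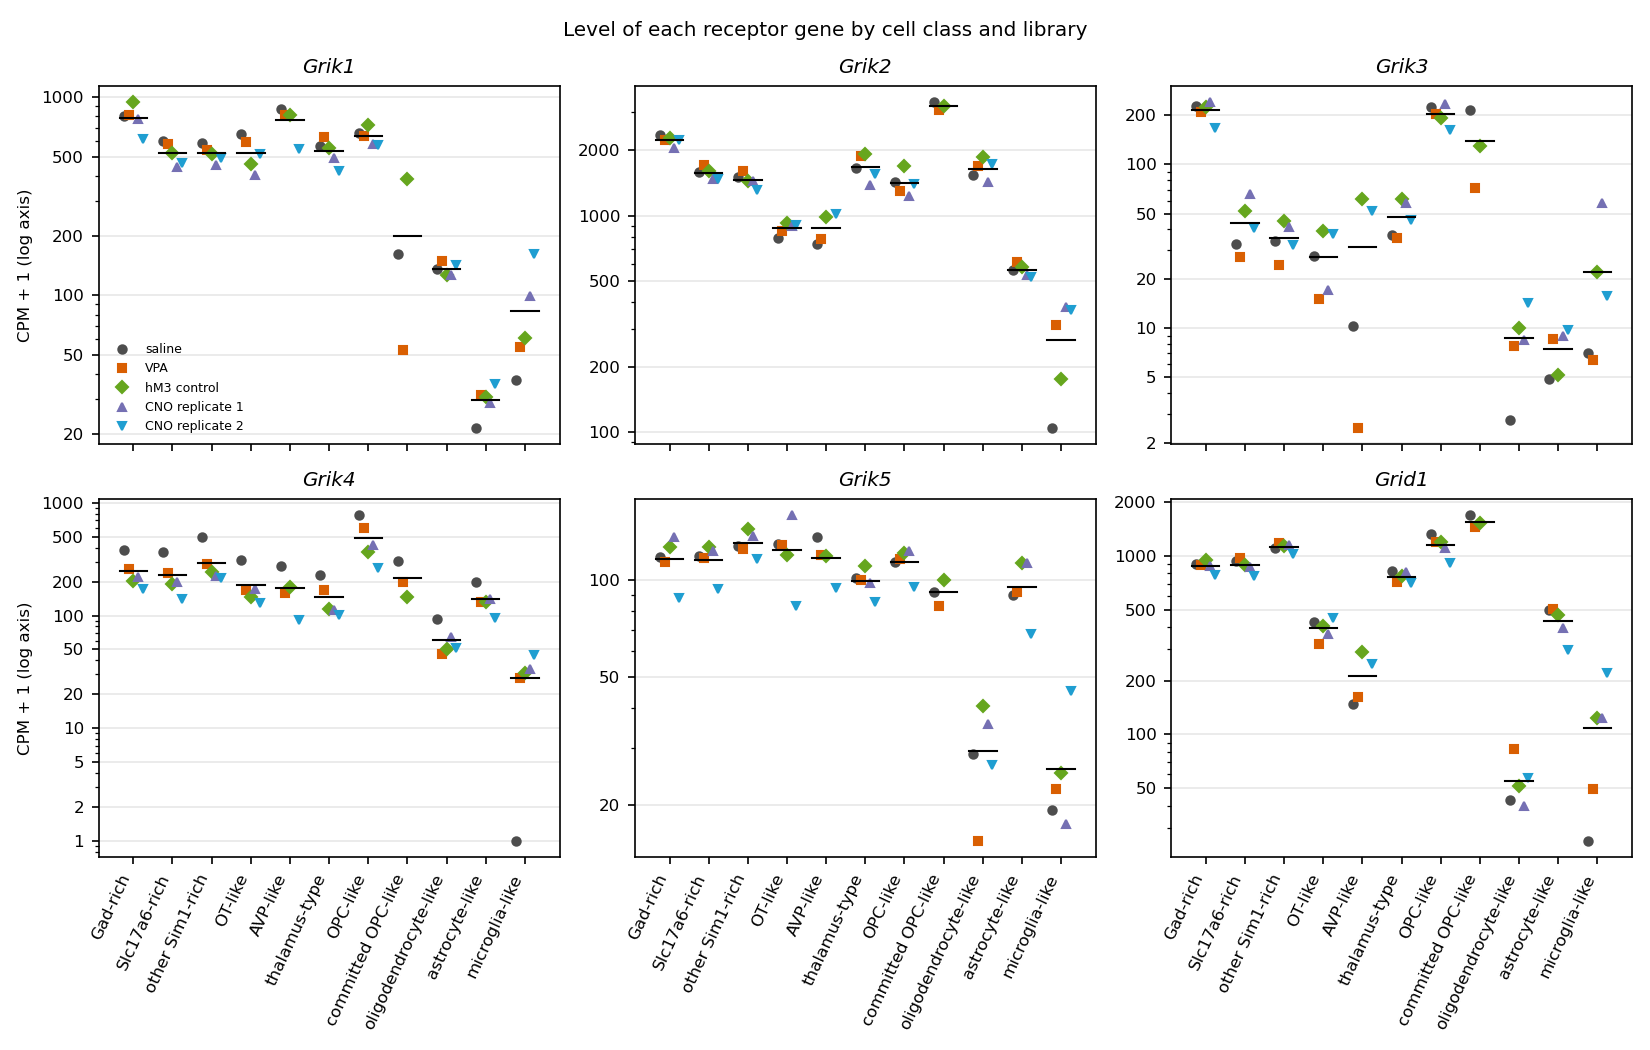
Level of each receptor gene (CPM + 1, log axis) in each cell class, with 1 symbol per library and a bar at the mean over libraries; libraries with fewer than 20 nuclei of a class are left out. Grik3 is high in Gad-rich neurons and OPC-like nuclei, Grid1 is low in OT-like, AVP-like and oligodendrocyte-like nuclei, and the saline library (grey circles) is the highest for Grik4 in every neuron class shown.

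OT-like neurons carried less Grik2, Grik4 and Grid1 than the other Sim1-rich neurons of the same library. These 3 of the 6 genes were lower in OT-like nuclei in 5 of 5 libraries, where 13.0% of all genes were. None of the 6 was higher in all 5, where 11.9% of all genes were. Grik1, Grik3 and Grik5 had differences of both signs.

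Grid1 differed most. It stood at 426, 321, 406, 366 and 451 CPM in OT-like nuclei and at 1111, 1175, 1138, 1158 and 1023 CPM in other Sim1-rich nuclei. Each OT-like value was below 0.5 times its library's Sim1-rich value, and the difference was -1.49 ± 0.26 (SD, n = 5). Grik2, at 785, 846, 928, 893 and 908 CPM in OT-like against 1512, 1613, 1437, 1443 and 1314 CPM in other Sim1-rich nuclei, was lower by 0.53 to 0.94, also without overlap. Grik4 was lower by 0.38 to 0.75, but its levels overlapped between the classes, because the saline library was high in both (311 and 496 CPM). The OT-like sub-clusters described below differed in how far Grik4 was lower. Of the 3, Grik2 and Grid1 were lower by at least 0.5 in every library, and 1.37% of all genes were.

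AVP-like neurons had still less Grid1 than OT-like neurons. In the 4 libraries with at least 20 AVP-like nuclei Grid1 stood at 148, 161, 289 and 248 CPM (saline, VPA, hM3 control, CNO replicate 2). OT-like nuclei were 0.93 ± 0.41 higher (SD, n = 4), higher in 4 of 4 libraries, where 18.9% of all genes were. The exact sign-flip permutation p was 0.125, the smallest that 4 libraries allow. Grik1 went the other way: AVP-like nuclei had 872, 806, 811 and 548 CPM, and OT-like nuclei were lower by 0.44 ± 0.29 (SD, n = 4), lower in 4 of 4 libraries, where 11.7% of all genes were. Of the OT-like sub-clusters described below, the one led by Adamts12 was lower in each of these libraries. The one led by Esr2, at 795, 863, 673 and 685 CPM, was higher than AVP-like nuclei in the VPA and CNO replicate 2 libraries. Grik2, Grik3, Grik4 and Grik5 did not keep 1 direction between these peptide neurons.

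Grik3 in AVP-like neurons was higher in the hM3 control and CNO replicate 2 libraries than in the saline and VPA libraries. These nuclei had 9.32 and 1.45 CPM in the saline and VPA libraries (8 UMIs and 1 UMI) and 60.2 and 50.8 CPM in the hM3 control and CNO replicate 2 libraries (49 and 19 UMIs). In CNO replicate 1 the 11 AVP-like nuclei had 0 UMIs of Grik3, which allows up to 20.6 CPM (exact Poisson 95% limit, counting error only). The hM3 libraries differ from the saline and VPA libraries in allele, virus and age, which cannot be told apart. In OT-like nuclei Grik3 stood at 26.7, 14.1, 38.1, 16.1 and 36.3 CPM, with overlap between the hM3 libraries and the others. Of the OT-like sub-clusters described next, the one led by Adamts12 had 4.71 and 4.97 CPM (5 UMIs each) in the saline and VPA libraries and 43.2, 15.2 and 31.5 CPM in the hM3 libraries, without overlap, and the one led by Esr2 had 39.9, 24.1, 30.1, 17.7 and 43.3 CPM, with overlap. Summed Gad-marker RNA in OT-like nuclei was 21.3, 18.8, 49.2, 33.8 and 46.7 CPM, and its part in these Grik3 levels was not tested.

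The OT-like nuclei fell into a pair of sub-clusters that differed in their receptors. One, led by Oxt, Adamts12 and Myocd, held 279 nuclei. The other, led by Esr2 (an estrogen receptor), Abcc9 and Foxp2, with Oxt also among its leading genes, held 271. Grik1, Grik2, Grik4 and Grid1 were lower in the first in all 4 libraries with at least 20 nuclei of each, 4 of 6 genes where 16.6% of all genes were.

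Grik4 in the Adamts12 sub-cluster was 148, 73.6, 106, 124 and 80.5 CPM, and in the Esr2 sub-cluster 409.8, 272, 208, 248 and 196 CPM, the fourth value in each resting on 16 and 9 nuclei. The difference was -1.32 ± 0.35 (SD, n = 4). Grik1 differed by -1.01 ± 0.22, from 412, 343, 325, 172 and 396 CPM to 795, 863, 673, 805 and 685 CPM. Grid1 differed by -0.90 ± 0.45 and Grik2 by -0.22 ± 0.25. Sorted by library, the Adamts12 sub-cluster made up 40.8%, 51.7%, 59.4%, 64% and 51.9% of OT-like nuclei, so the makeup of the class was not the same in every library. For Grik4 the Adamts12 sub-cluster lay below the other Sim1-rich nuclei in every library. The Esr2 sub-cluster lay above them in CNO replicate 1 and below them, by less, in the other libraries.

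**Figure D2:**
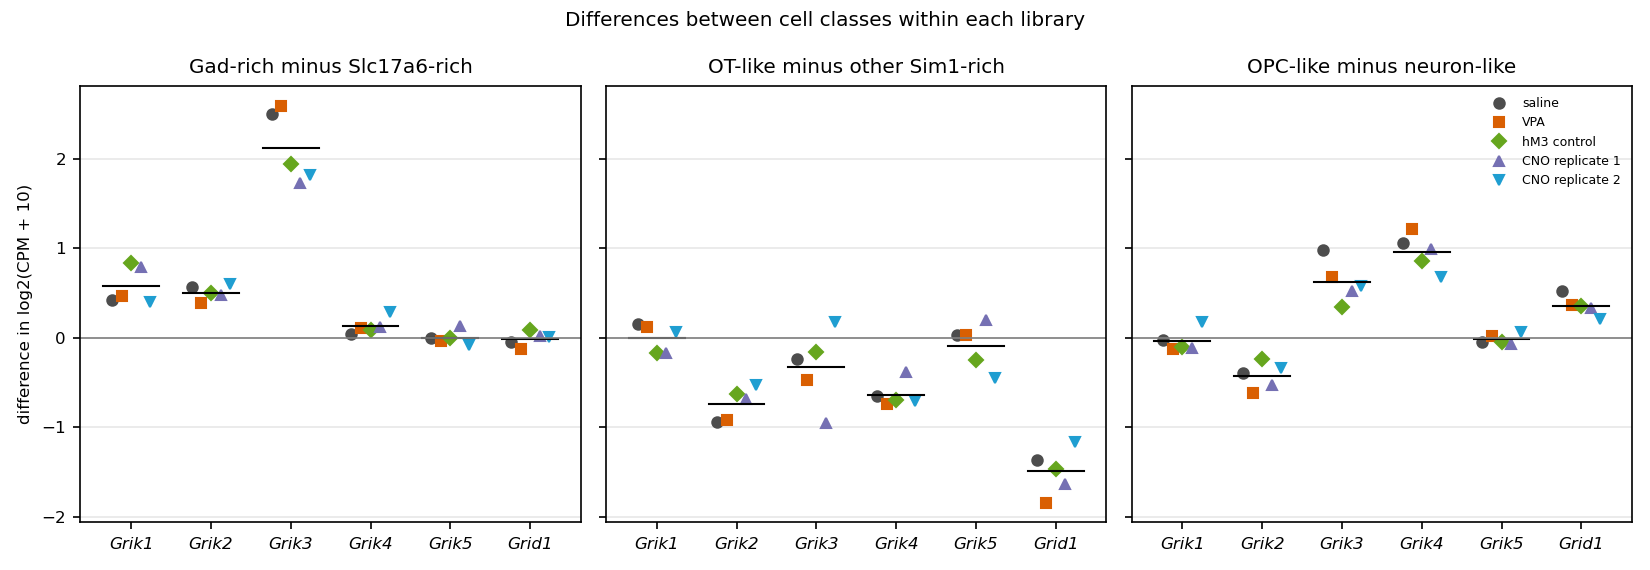
Difference in log2(CPM + 10) between a pair of cell classes within each library, with 1 symbol per library and a bar at the mean. The Grik3 symbols lie between 1.73 and 2.59 in the Gad-rich against Slc17a6-rich panel, the Grid1 symbols between -1.84 and -1.16 in the OT-like panel, and the Grik4 symbols between 0.68 and 1.22 in the panel of OPC-like against neuron-like nuclei.

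Thalamus-type neurons had less Grik4, Grik5 and Grid1 and more Grik3 than the other Sim1-rich neurons of the same library. Grik4 was 226, 169, 113, 111 and 99.9 CPM in thalamus-type against 496, 288, 241, 223 and 214 CPM in other Sim1-rich nuclei, lower by 0.97 ± 0.14 (SD, n = 5). Grik5 was lower by 0.36 ± 0.07 and Grid1 by 0.55 ± 0.11, again in 5 of 5 libraries. These are 3 of 6 genes, near the 41.0% of all genes that were lower in this comparison. Grik3 was higher in 5 of 5 libraries, by 0.35 ± 0.14, where 10.9% of all genes were.

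Among 53 neuron sub-clusters with at least 50 nuclei, the receptor genes differed in how far their levels spread. The highest sub-cluster exceeded the lowest 204-fold for Grik3, 46.1-fold for Grik1, 10.2-fold for Grik4, 9.01-fold for Grid1, 4.97-fold for Grik2 and 1.92-fold for Grik5. Sub-clusters are called here by their leading genes, and their levels pool the libraries, which contribute unequally to them. The 204-fold of Grik3 rests on a lowest value of 2.53 CPM, or 8 UMIs.

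Grik3 followed the transmitter type with few exceptions. The 25 Gad-rich sub-clusters ranged from 87.4 to 515 CPM with a median of 228 CPM, and the 23 Slc17a6-rich ones from 2.53 to 159.8 CPM with a median of 26.4 CPM. 3 of the 23 lay above the lowest Gad-rich one. Among the high levels were those of the Gad-rich sub-clusters led by Pmfbp1 and Onecut2 (427 CPM) and by Eepd1 and Pvalb (342 CPM). The lowest were in Slc17a6-rich sub-clusters led by Samd3 (12.7 CPM), Ppp1r17 and Agtr1a (12.1 CPM) and Agtr1a and Tns1 (2.53 CPM).

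Grik1 varied most within the Gad-rich type. It was highest in the sub-cluster led by Nr5a2 and Corin, at 2787 CPM (2683 to 3632 CPM over 3 libraries), and then in those led by Lhx6 and Greb1 (1779 CPM) and by Moxd1 and Lhx6 (1420.2 CPM). Yet the Gad-rich type also held low levels, such as 101 CPM in the Pmfbp1 and Onecut2 sub-cluster, which was the second highest for Grik3. The sub-cluster led by Pdzrn3, rich in neither transmitter marker, had 126 CPM. Its 65 nuclei had Xist among their leading genes, although the libraries are labelled male.

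Grik2 was highest in Gad-rich sub-clusters led by Eepd1 and Pvalb (3553 CPM), Pdgfd and Pax6 (3439.6 CPM) and Moxd1 and Lhx6 (3086 CPM). Its lowest levels were in the Adamts12 OT-like sub-cluster (819 CPM) and in the Agtr1a sub-clusters (752 and 714 CPM). Grik4 was highest in the Agtr1a and Tns1 sub-cluster, at 913 CPM, followed by Ppp1r17 and Agtr1a at 595 CPM and Nr5a2 and Corin at 533 CPM. The Agtr1a and Tns1 level ranged from 463 to 1204 CPM over 4 libraries. Grik4 was lowest in the sub-clusters led by Eepd1 and Pvalb (101 CPM), Ebf2 (101 CPM) and Lef1 and Prkcd (89.6 CPM). The CNO libraries, with lower Grik4 in neurons than the saline and VPA libraries, gave 92 and 32 of the 146 Eepd1 and Pvalb nuclei and 112 and 155 of the 323 Lef1 and Prkcd nuclei, while the saline and VPA libraries gave 125 and 207 of the 414 Agtr1a and Tns1 nuclei. The part of this makeup in the Grik4 ranks was not tested. Agtr1a encodes the angiotensin II type 1a receptor.

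Grik5 ran nearly level across neurons. Its highest sub-clusters, led by Nr5a2 and Corin, Sim2 and Ebf1, and Megf11 and Nr5a1, had 155, 153 and 149 CPM. Its lowest, led by Sema3d, by Prkch and Adgrg6 and by Lef1 and Prkcd, had 93.2, 93.1 and 80.7 CPM, and the last pair were thalamus-type.

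Grid1 was highest in Slc17a6-rich sub-clusters led by Rxfp2, Hhip and Sst (1881 CPM), Ppp1r17 and Agtr1a (1743 CPM) and Tfap2b (1423 CPM). Its lowest 3 were the Eepd1 and Pvalb sub-cluster (471 CPM), the Adamts12 OT-like sub-cluster (274 CPM) and the AVP-like sub-cluster (208.8 CPM), while the Esr2 OT-like sub-cluster stood at 525 CPM.

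**Figure D3:**
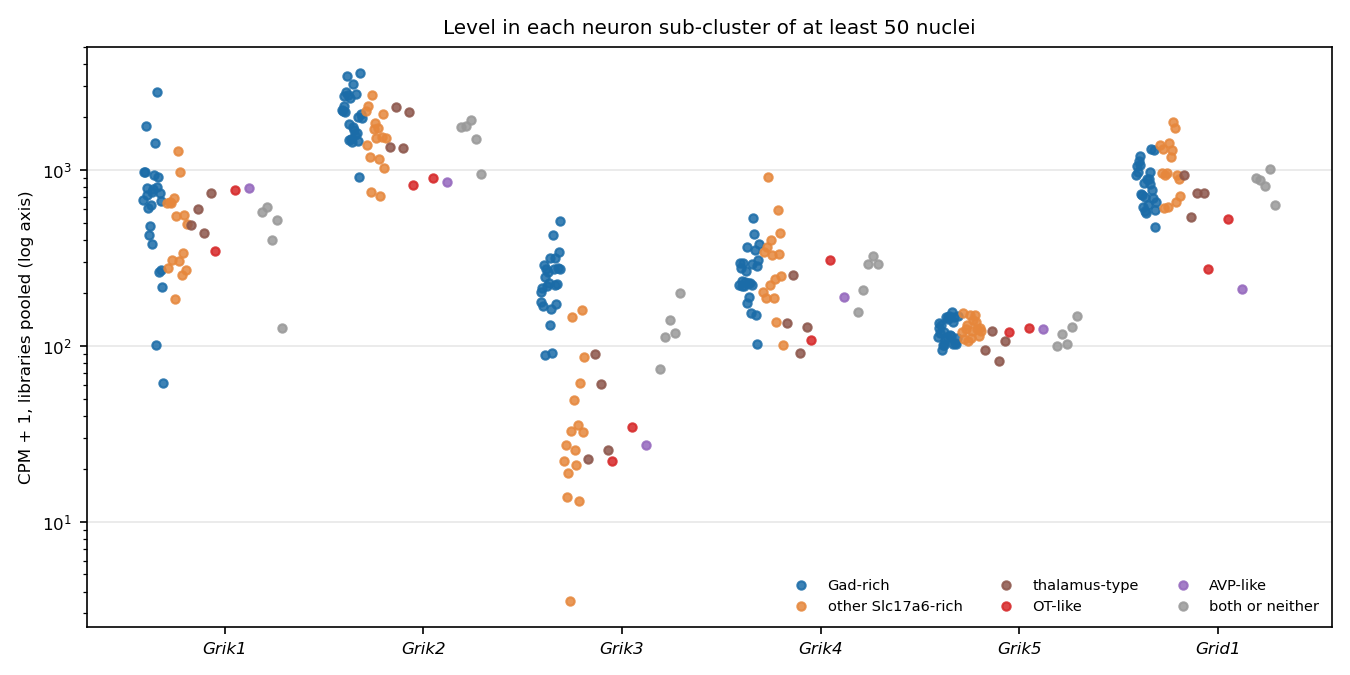
Level of each receptor gene (CPM + 1, log axis, libraries pooled) in each of the 53 neuron sub-clusters with at least 50 nuclei, 1 point each, coloured by type. Grik3 separates Gad-rich from most Slc17a6-rich sub-clusters, Grik5 stays within 80.7 to 155 CPM, and the AVP-like point and the lower of the OT-like points are at the bottom for Grid1.

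In glia the receptor genes differed by class. All 6 were lower in astrocyte-like, oligodendrocyte-like and microglia-like than in neuron-like nuclei of every library, where 36.3%, 43.2% and 38.1% of all genes were. With OPC-like nuclei (oligodendrocyte progenitors) added, 1 of the 6, Grik2, was higher in neurons than in each of the 4 glia classes in every library, and 10.6% of all genes were. This last result did not hold with only nuclei of at least 2000 UMIs, where 0 of 6 remained. With doublets kept, or without CNO replicate 2, it was 2 of 6 (Grik1 and Grik2). The oligodendrocyte-like class held clusters of unlike Grik2 level. With libraries pooled, its largest cluster had 1373 CPM. The cluster led by Iigp1 (199 nuclei, 0 of them from the saline and VPA libraries) had 2966 CPM. The one led by Cldn14 and Mobp (176 nuclei) had 2490 CPM, and both of these lay above the neuron-like levels.

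Neuron RNA in glia set a reference for these levels. The 7 neuron markers (Snap25, Syt1, Rbfox3, Meg3, Snhg11, Celf4 and Rbfox1) stood at a median of 4.45% to 6.45% of their neuron level in astrocyte-like nuclei. Grik1 (3.05% to 6.86%) and Grik3 (2.83% to 8.40%) did not exceed the highest single marker of the same library (8.08% to 14.6%), so no expression of their own is read from these levels. Grik2 stood at 29.1% to 30.6%, Grid1 at 37.9% to 54.6%, Grik4 at 52.1% to 68.0% and Grik5 at 74.7% to 89.8% of the neuron level, all above the markers in every library. In oligodendrocyte-like nuclei the markers stood at a median of 2.68% to 6.86%. There Grik2 reached 79.7% to 97.1% and Grik1 16.4% to 27.9%, and Grik4 (18.1% to 31.7%) and Grik5 (12.7% to 31.7%) were also above the highest single marker in every library, while Grid1 (4.44% to 8.93%) and Grik3 (1.62% to 12.8%) stayed near the markers.

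OPC-like nuclei had more Grik4, Grik3 and Grid1 than neuron-like nuclei as a whole. Grik4 stood at 777, 593, 362, 421 and 264 CPM in OPC-like and at 366, 249, 196, 206 and 161 CPM in neuron-like nuclei. OPC-like nuclei were higher within every library, by 0.96 ± 0.21 (SD, n = 5), although the ranges over libraries overlapped. Grik3, at 222, 202, 190.4, 232 and 159.8 CPM, was higher by 0.62 ± 0.24, without overlap with the 104 to 158 CPM of neuron-like nuclei, and Grid1 by 0.36 ± 0.11. Against single neuron classes the order varied. Gad-rich neurons had more Grik3 than OPC-like nuclei in 5 of 5 libraries, with means of 212 and 201 CPM and overlapping ranges, and Grid1 was higher in OPC-like than in other Sim1-rich nuclei in 3 of 5. Neto1 was higher by 1.17 ± 0.16. These 3 of 6 genes compare with 12.4% of all genes. Grik2 was lower in OPC-like nuclei in 5 of 5 libraries, by 0.42 ± 0.15, where 29.7% of all genes were. The neuron markers stood at a median of 15.5%, 9.19%, 45.7%, 41.9% and 38.1% of their neuron level in OPC-like nuclei, higher in the hM3 libraries. The part of neuron RNA in the OPC-like levels was not tested.

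Along the oligodendrocyte line the genes were highest at different stages. Committed OPC-like nuclei, named from Bcas1, Enpp6, Gpr17 and other genes of newly forming oligodendrocytes, numbered at least 20 in 3 libraries (saline, VPA, hM3 control), and 3 libraries cannot give a p below 0.25. Grik2 was 1436, 1296 and 1699 CPM in OPC-like, 3338, 3062 and 3224 CPM in committed OPC-like and 1538, 1694 and 1870.1 CPM in oligodendrocyte-like nuclei, so the committed class was the highest in each. Grik2 was 1.12 ± 0.18 higher in committed than in OPC-like nuclei (SD, n = 3), where 19.0% of all genes were higher in all 3. Grid1 was also higher in the committed class, by 0.33 ± 0.03, and was far lower after it: 1694, 1459 and 1522 CPM in committed against 41.8, 82.4 and 50.5 CPM in oligodendrocyte-like nuclei, a difference of 4.57 ± 0.53 (SD, n = 3).

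Grik1 and Grik4 were highest one stage earlier. Grik4 was 1.37 ± 0.15 higher and Grik1 2.07 ± 1.25 higher in OPC-like than in committed OPC-like nuclei (SD, n = 3), the latter with committed levels of 161, 52.1 and 383 CPM. Grik3 and Grik5 were higher in OPC-like nuclei too, by 0.67 ± 0.67 and 0.33 ± 0.10, which makes 4 of 6 genes against 30.7% of all genes. From committed to oligodendrocyte-like nuclei, Grik2, Grik3, Grik4, Grik5 and Grid1, 5 of 6, were lower in all 3 libraries, where 24.6% of all genes were. Grik1 differed in sign.

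As shares of the UMIs of the 5 kainate genes, the makeup of the receptor message varied by class. Each share pools the libraries and is compared only with that of the same gene elsewhere. Grik2 made up 61.4% in Gad-rich neurons, 48.6% in OT-like neurons, 49.9% in OPC-like and 87.4% in oligodendrocyte-like nuclei. Grik1 made up 31.3% in OT-like neurons, 22.5% in Gad-rich neurons and 7.20% in oligodendrocyte-like nuclei. Grik4 ranged from 3.30% in oligodendrocyte-like (2.36% to 5.09% over libraries) to 16.7% in OPC-like nuclei (10.6% to 24.3%), with 16.3% in astrocyte-like nuclei (13.1% to 22.7%) and 6.86% in Gad-rich neurons (5.28% to 9.70%). Grik3 ranged from 0.415% in oligodendrocyte-like to 7.07% in OPC-like nuclei, with 1.61% in Slc17a6-rich and 6.02% in Gad-rich neurons.

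Genes with the most similar profile were sought among 13489 genes over 69 clusters, neuronal and glial, which share libraries and depth. For Grik3 the nearest were Gad2 (Pearson r = 0.817), the long noncoding RNA Dlx6os1 (0.804) and Gad1 (0.797). For Grik4 they were Shisa7, which encodes an auxiliary protein of AMPA and GABA-A receptors (0.794), the kainate auxiliary subunit Neto1 (0.791) and Lrfn2 (0.790). For Grid1 they were the AMPA receptor subunit Gria2 (0.877), Csmd1 (0.863) and Ppp2r2b (0.860), and for Grik5 Dclk1 (0.883), Nol4 (0.879) and Mapk10 (0.877). Grik1 was nearest to Sgcz (0.785), Gabra3 (0.769) and Ctnna2 (0.753), and Grik2 to Elavl3 (0.811), Amph (0.805) and Anks1b (0.775). Several of these are broadly neuronal genes. Within the 53 neuron sub-clusters the receptor genes had low correlations with each other. The highest was Grik2 with Grik3 (r = 0.445) and the lowest Grik1 with Grik4 (r = -0.206).

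The comparison of VPA with saline asked how prenatal valproate bears on the paraventricular hypothalamus. Each arm had 1 library, so no test was made. Bracketed ranges are 95% counting intervals of the ratio of CPM, from exact binomial intervals of the UMI counts, and cover counting error only. A gene counted as past the fold where it differed by at least 0.5 in log2(CPM + 10), or 1.41-fold. A gene of very low CPM in both libraries cannot reach this with 10 CPM added, and the shares of all genes include such genes.

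Grik4 was the 1 gene of the 6 past the fold in neuron-like nuclei, where 0.624% of all genes were. It stood at 366 CPM (20696 UMIs) in the saline and 249 CPM (12883 UMIs) in the VPA library, a difference of -0.54 (-0.59 to -0.52). The difference was -0.52 in Gad-rich, -0.58 in Slc17a6-rich, -0.76 in other Sim1-rich, -0.76 in AVP-like and -0.40 in thalamus-type neurons. In these classes 0.544%, 0.971%, 0.761%, 15.2% and 2.71% of all genes were past the fold. Grik3 was also past it in AVP-like nuclei (-0.75), on 8 and 1 UMIs, fewer than the 20 required of the genes in that share. The Grik4 difference was also negative in OPC-like (-0.38), astrocyte-like (-0.58) and oligodendrocyte-like nuclei (-0.88), where 16.6%, 6.12% and 14.7% of all genes were past the fold. In oligodendrocyte-like nuclei Grid1 (0.84), Grik5 (-0.63) and Grik3 (0.52) were past the fold too. Grik3 had 2 and 8 UMIs there, fewer than the 20 required of the genes in the 14.7% share. The oligodendrocyte-like class joined 3 clusters. The one led by Cldn14 and Mobp, whose pooled Grid1 level was 148 CPM against 38.9 CPM in the largest, gave 30 nuclei beside 273 of the largest in the saline and 101 beside 429 in the VPA library, and the part of this makeup in the Grid1 difference was not tested. In committed OPC-like nuclei Grik1 (-1.46), Grik3 (-1.46) and Grik4 (-0.61) were past the fold, on 36 and 70 nuclei, where 28.7% of all genes were. In microglia-like nuclei Grik4 had 0 UMIs in the saline and 5 UMIs (26.8 CPM) in the VPA library, so its direction there was the opposite at these low counts. With nuclei thinned to 2000 UMIs, 47.8% of neuron-like nuclei of the saline library and 36.7% of those of the VPA library had a Grik4 UMI. Without thinning it was 88.2% and 67.1%.

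The other 5 genes lay between -0.03 and 0.16 in neuron-like nuclei. Grik1 stood at 668 and 697 CPM (0.06), Grik2 at 1890.2 and 1988 CPM (0.07), Grik3 at 108 and 122 CPM (0.16), Grik5 at 117 and 114 CPM (-0.03) and Grid1 at 917 and 923 CPM (0.01). Over the alternative settings run, Grik1 ranged from -0.07 to 0.06, Grik2 from -0.03 to 0.08 and Grid1 from -0.09 to 0.01, so their signs depended on the setting. The median of the 6 was 0.03, and that of all genes 0.02. Grik3 had the opposite sign within the transmitter types, at -0.12 in Gad-rich and -0.21 in Slc17a6-rich neurons. Gad-rich nuclei made up 43.6% of neuron-like nuclei in the saline and 57.3% in the VPA library, and with each neuron cluster given equal weight the Grik3 difference was -0.21.

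Grik4 was lower in the VPA library in 42 of the 42 neuron sub-clusters with at least 20 nuclei in both libraries. Its sub-cluster differences ran from -0.92 to -0.14, with a median of -0.56. Of all genes 0.0780% were lower in all 42. Grik5 was lower in 30 of 42 (4.78% of all genes were lower in at least as many) and Grik3 in 28 (7.54%), and Grid1 in 24 (17.2%). Grik1 and Grik2 were lower in 22 each (25.5%). Sub-clusters of 1 library share its preparation, so 42 sub-clusters are not 42 replicates.

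**Figure D4:**
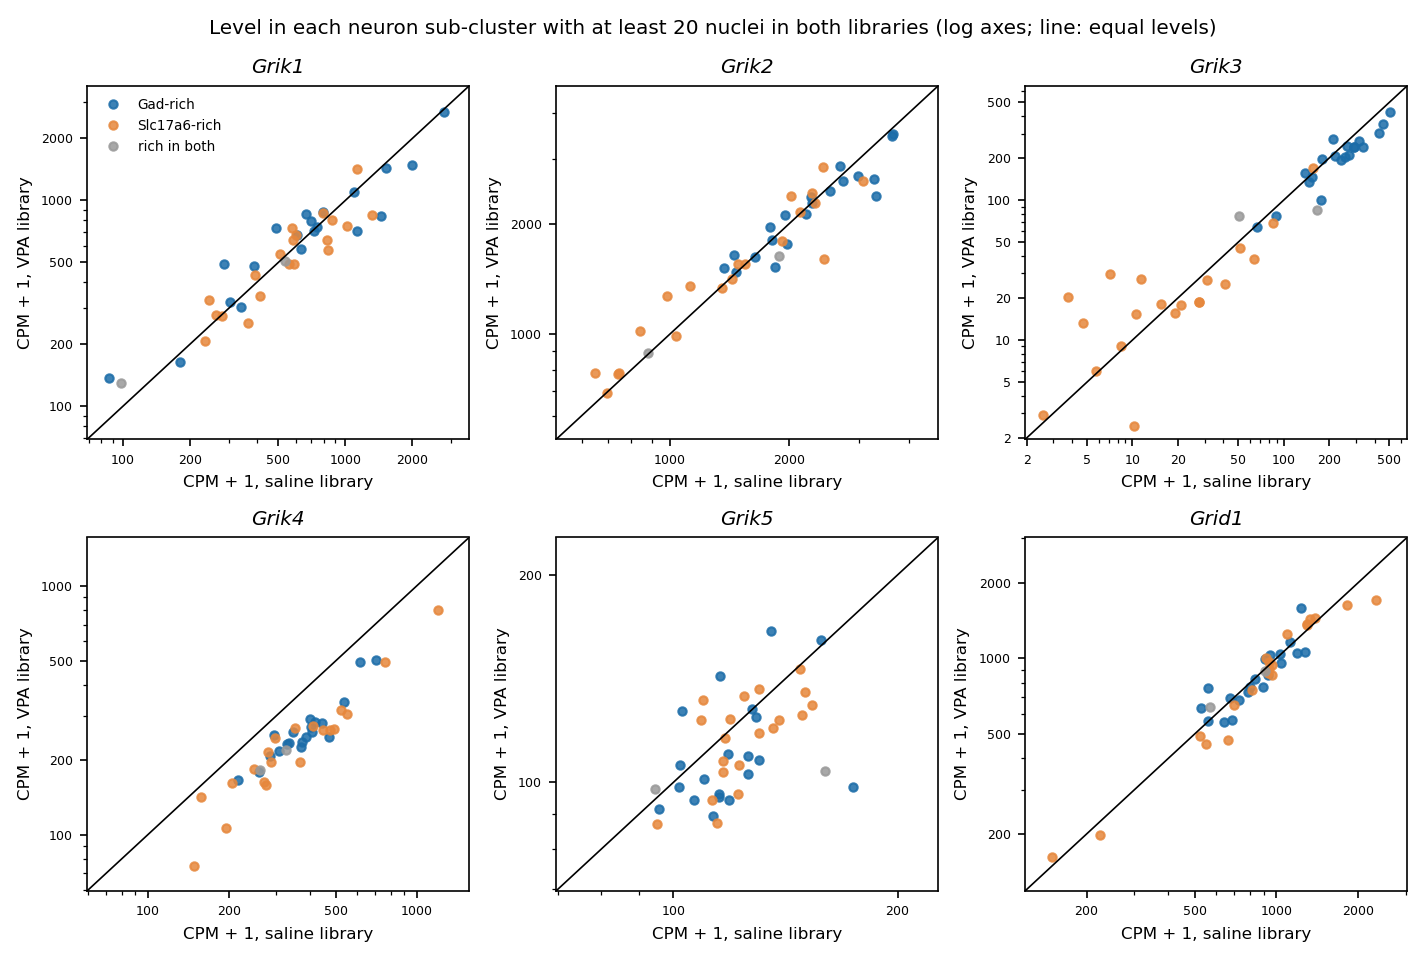
Level of each receptor gene in the saline library (x axis) and the VPA library (y axis) in each of the 42 neuron sub-clusters with at least 20 nuclei in both (CPM + 1, log axes). All 42 Grik4 points lie below the line of equal levels, while the points of the other genes lie on both sides of it.

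Set against all 5 libraries, the saline library was the highest for Grik4 in 5 of 5 neuron classes, where 1.59% of all genes were. These classes were Gad-rich, Slc17a6-rich, OT-like, other Sim1-rich and thalamus-type, and the last 3 are parts of the Slc17a6-rich class. The saline library was also the highest in 3 of 4 glia classes. Grik4 in neuron-like nuclei was 366, 249, 196, 206 and 161 CPM, and the VPA library lay between the saline library and the 3 hM3 libraries. The hM3 libraries differ from both in allele, virus and age as well. RNA of the choroid plexus markers, of which Ttr (transthyretin) is one, summed to 98.8 CPM in neuron-like nuclei of the saline library and to 4.54, 5.01, 5.09 and 5.74 CPM in the others, with 0 of the 6 markers at 0. All 75 nuclei of the choroid plexus cluster came from the saline library. The part of this RNA or tissue in the Grik4 difference was not tested. Among the 5 libraries the saline one is the only library without prenatal VPA, and library and exposure cannot be told apart.

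In OT-like nuclei Grik4 stood at 311 CPM (875 UMIs) in the saline and 168 CPM (322 UMIs) in the VPA library, a difference of -0.85 (-1.08 to -0.70). Grik3 stood at 26.7 CPM (75 UMIs) and 14.1 CPM (27 UMIs), -0.61 (-1.61 to -0.27). These 2 of the 6 genes were past the fold, where 4.14% of all genes were. With doublets kept, or with equal weight for each OT-like sub-cluster, Grik3 was no longer past it. With only the OT-like nuclei that had an Oxt UMI, Grid1 was past it as well (-0.57), which made 3 of 6. Among all OT-like nuclei Grid1 was 426 and 321 CPM, -0.40 (-0.55 to -0.27), and Grik1, Grik2 and Grik5 lay between -0.14 and 0.11. Within the Adamts12 and the Esr2 sub-cluster Grik4 differed by -0.92 and -0.58, Grik3 by 0.03 (on 5 and 5 UMIs) and -0.55, and Grid1 by -0.17 and -0.26.

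The comparison of CNO with saline treatment asked what stimulation of oxytocin neurons in newborn VPA-exposed mice changes later. The control arm had 1 library and the CNO arm 2, and the smallest exact permutation p of this design is 0.333. A gene counted as past the fold where both CNO libraries differed from the control by at least 0.5 in the same direction.

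In neuron-like nuclei 0 of the 6 genes were past the fold, where 0.369% of all genes were. Grik1, Grik2 and Grid1 were lower in both CNO libraries. Grik1 stood at 769 CPM in the hM3 control and at 623 and 508 CPM in CNO replicates 1 and 2, differences of -0.30 and -0.59. Grik2 stood at 1998, 1789 and 1774 CPM (-0.16 and -0.17) and Grid1 at 938, 874 and 785 CPM (-0.10 and -0.25). Without CNO replicate 1, Grik1 alone would be past the fold (1 of 6). With median-ratio scaling the mean differences of Grik2 and Grid1 went from -0.16 and -0.18 to -0.28 and -0.30, and with each neuron cluster given equal weight that of Grik1 went from -0.44 to -0.25.

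Grik3, Grik4 and Grik5 were slightly higher in replicate 1 and lower in replicate 2: 0.09 and -0.48 for Grik3, 0.07 and -0.27 for Grik4, 0.04 and -0.43 for Grik5. The gap between the CNO libraries was as large as or larger than their mean difference from the control for each of these 3. The median of the 6 mean differences was -0.19, and that of all genes 0.02. With equal cluster weights the mean difference of Grik4 turned from -0.10 to 0.10. Gad-rich nuclei made up 56.7%, 56.4% and 33.6% of neuron-like nuclei in the control and CNO replicates 1 and 2. Within Gad-rich neurons Grik1 differed by -0.28 and -0.61, and within Slc17a6-rich neurons by -0.23 and -0.18. The makeup of the 1678, 1410 and 744 Gad-rich nuclei of these libraries also differed. The sub-cluster led by Lhx8 and Hmcn1 (678 CPM of Grik1, libraries pooled) gave 229, 268 and 323 of them. The one led by Lhx6 and Greb1 (1779 CPM) gave 124, 111 and 21. The part of this makeup in the Grik1 difference within Gad-rich neurons was not tested.

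In 20 neuron sub-clusters with at least 20 nuclei in all 3 libraries, Grik2 was lower in both CNO libraries in 14, Grik1 in 13 and Grid1 in 13. Of all genes 0.912% were lower in both in at least 14, and 1.59% in at least 13. Grik3 and Grik5 were lower in both in 7 and 6 of the 20, where 23.2% and 34.0% of all genes were lower in at least as many. Grik4 was lower in both in 2 and higher in both in 5, and 55.2% of all genes were higher in at least 5. In OT-like nuclei 0 of the 6 genes were past the fold, where 2.79% of all genes were. There Grik1 stood at 458, 403 and 513 CPM and Grid1 at 406, 366 and 451 CPM, with the CNO libraries on both sides of the control. Over the alternative settings run, the mean Grik1 difference ranged from -0.77, in nuclei with an Oxt UMI, to 0.16. CNO replicate 1 held 25 OT-like nuclei, and its Grik3 value of 16.1 CPM rests on 10 UMIs. Without CNO replicate 2, Grik3 would be past the fold in OT-like nuclei (1 of 6).

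**Figure D5:**
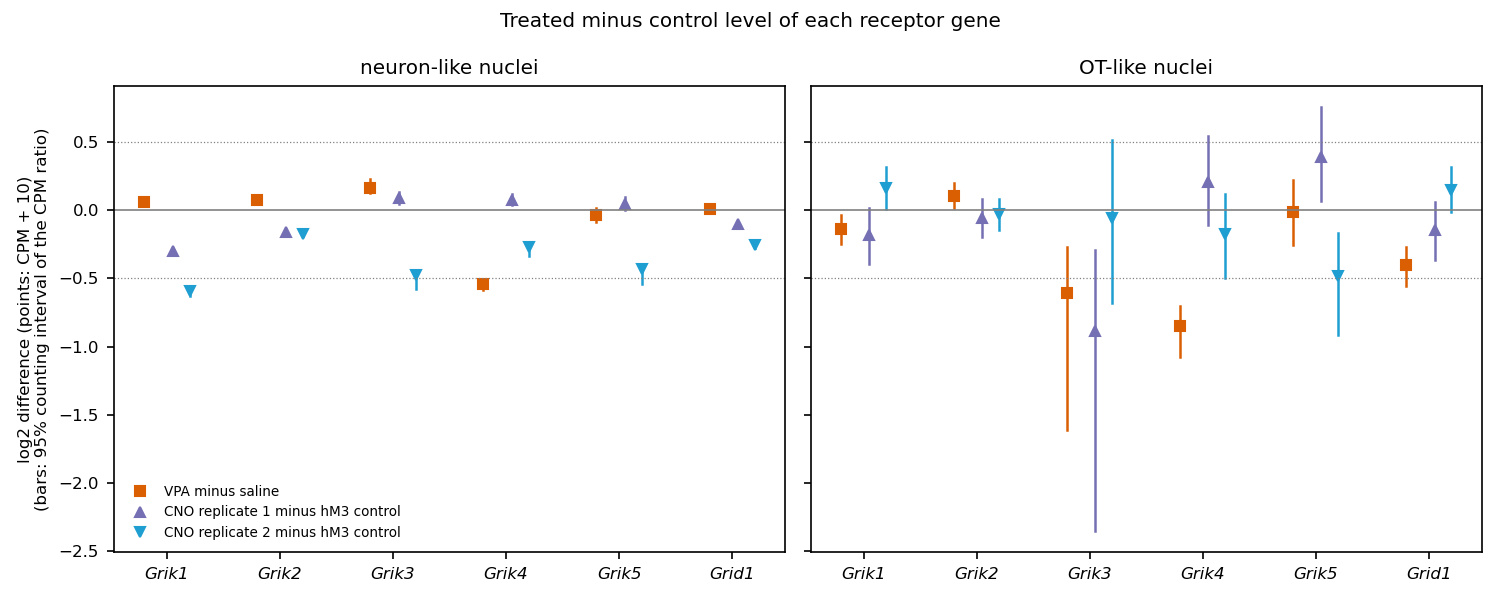
Treated minus control difference of each receptor gene in neuron-like and OT-like nuclei: points are differences in log2(CPM + 10), bars the 95% counting interval of the CPM ratio, and dotted lines the 0.5 fold threshold. Grik4 lies at -0.54 and -0.85 in the VPA comparison, and the CNO replicates lie on opposite sides of 0 for Grik3, Grik4 and Grik5 in neuron-like nuclei.

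Other genes of glutamate synapses were followed as a list of 27: Neto1 and Neto2, 4 AMPA and 7 NMDA receptor genes, 6 secreted synapse organisers, 3 neurexins and 5 scaffolds. In neuron-like nuclei 0 of 27 were past the fold in either comparison, with medians of -0.01 (VPA) and -0.02 (CNO) beside 0.02 for all genes in both. In OT-like nuclei 2 of 27 were past it in the VPA comparison, where 4.14% of all genes were, both lower: Cbln4, a cerebellin, and Pick1, a scaffold protein. A count of 2 in 27 is close to that background. None of the 27 was past it with CNO. Neto1 differed by -0.09 in the VPA comparison and by -0.21 and -0.33 in the CNO comparison, and Neto2 by 0.14 and by -0.09 and -0.21, in neuron-like nuclei.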

How the data were processed

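The deposited files hold raw UMI counts per gene and nucleus, made by the authors with Cell Ranger 7.0.1 and mm10 per the submitters' processing notes; other settings are not given in the sources used here. Counts from all 5 libraries were used, and 0 columns belonged to other samples. Nuclei below 1000 UMIs, or with over 5% of UMIs from mitochondria, were left out. The highest Scrublet scores were removed as doublets at 0.8% per 1000 nuclei, because the automatic threshold marked 1 to 159 nuclei per library. That left 5199, 9823, 4945, 4115 and 5402 nuclei (saline, VPA, hM3 control, CNO replicates 1 and 2).

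Clustering (scanpy 1.11.5, leidenalg 0.10.2, Python 3.11.15) used 2000 variable genes without the 6 receptor genes, 30 components and 20 neighbours, at resolution 1 for all nuclei (36 clusters) and 2 for neurons (61). Clusters were named from marker lists. The rule that keeps shallow clusters unnamed compared oligodendrocyte clusters with the median of all deposited nuclei, a choice made after seeing the data. The members and lists were chosen with earlier results of these data known.

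UMIs were summed per class and library (at least 20 nuclei) and scaled to CPM. Background shares are over genes with at least 20 UMIs. They include genes of CPM too low to reach a difference of 0.5 with 10 CPM added. Animals were pooled within a library, so tests measure the spread between libraries, which may be technical. The text names the 6 members, Neto1, Neto2 and listed pathway genes past the fold, the 3 genes of most similar profile (at least 20 CPM in a cluster) and the 3 highest and 3 lowest sub-clusters. The computation was tested on simulated data. Alternatives changed the UMI minimum, doublets, scaling, pseudocount, cluster weights, class definitions and libraries. Intervals are exact and cover counting error only. A few of the highest and lowest sub-clusters under that rule are not reported here.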

Additional observations from a re-analysis of the deposited data

How the results depend on the processing

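The count of 1 gene past the fold (Grik4) in neuron-like nuclei, VPA against saline, was the same under each alternative run, with Grik4 between -0.63 and -0.54. Median-ratio scaling moved Grik1 and Grik2 to -0.03 and -0.02 in that comparison, and equal cluster weights to -0.07 and -0.03. In OT-like nuclei Grik4 ran from -1.04 to -0.66. The 2 genes past the fold there became 3 (with Grid1 at -0.57) in nuclei with an Oxt UMI, 1 with doublets kept and 1 with equal weight for each OT-like sub-cluster, an alternative chosen after seeing the data, as was leaving out neuron clusters rich in both or neither transmitter marker. Leaving out 1 library gave 0 to 1 genes past the fold with CNO in neuron-like nuclei (1, Grik1, without CNO replicate 1) and 0 to 1 in OT-like nuclei (1, Grik3, without replicate 2). In nuclei with an Oxt UMI the mean CNO difference of Grik1 went from -0.01 to -0.77, with 0 genes past the fold. Leaving out 1 library also gave 0 to 1 genes higher in Slc17a6-rich than in Gad-rich neurons (1, Grik5, without CNO replicate 1). It gave 1 to 2 genes higher in neurons than in each glia class (2 without CNO replicate 2). This last count was 0 with at least 2000 UMIs and 2 with doublets kept. The cause was not tested. Without the filter on low counts the background shares were 0.477%, 2.67%, 0.282% and 1.82% (VPA and CNO, each in neuron-like and OT-like nuclei). No paired analysis was possible because the arms compared share at most 1 replicate number.
With 1 library in most arms, depth sets only the counting error; spread between animals was not measured. OT-like values rest on 25 to 203 nuclei per library, and Grik3 there on 10 to 86 UMIs.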

Other observations

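Lower levels in the VPA than in the saline library in all 42 neuron sub-clusters were found for 15 of 19228 genes. Besides Grik4 these were Ttr, Bc1, Agap2, Pter, Gm36264, Leng9, Dlk2, Pabpc1, Zfp523, Safb, Srsf9, Matk, Mirg and Kcnq1ot1. Ttr, the choroid plexus transport protein, stood at 92.8 CPM in neuron-like nuclei of the saline and 0.155 CPM in those of the VPA library. All 75 nuclei of the choroid plexus cluster came from the saline library. Bc1, a noncoding RNA of neurons, stood at 4059 and 2059 CPM (-0.98). Ordered by the difference in neuron-like nuclei Grik4 was followed by Safb (-0.46), Srsf9 (-0.44), Matk (-0.39), Mirg (-0.34) and Kcnq1ot1 (-0.27). Grik4 was the only one of the 6 receptor genes among them. No explanation was tested.

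With the libraries pooled, a pair of Slc17a6-rich sub-clusters with Agtr1a among their leading genes stood at an end of the neuronal range for 3 receptor genes. The one led by Agtr1a and Tns1 (414 nuclei) and the one led by Ppp1r17 and Agtr1a (216 nuclei) were the lowest pair for Grik2 and for Grik3 and the highest pair for Grik4. The second was also the second highest for Grid1. A sub-cluster led by Pld1 and Agtr1a (91 nuclei), rich in both transmitter markers, did not share this, with 1512 CPM of Grik2, 117 CPM of Grik3 and 323 CPM of Grik4. Within single libraries not all of these ranks held. In the VPA library the Nr5a2 and Corin sub-cluster (502 CPM) lay above the Ppp1r17 and Agtr1a one (496 CPM) for Grik4, and the Adamts12 OT-like sub-cluster was the lowest for Grik2 (691 CPM) among those with at least 20 nuclei in both the saline and VPA libraries. For Grik3 the Ppp1r17 and Agtr1a sub-cluster had 2.74 CPM in the saline but 19.4 CPM in the VPA library, above several others there. Over all 69 clusters Grik4 and Grid1 had a Pearson r of 0.777, against 0.250 over the 53 neuron sub-clusters, where glia are left out.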
